A study of Homo sapiens with 15 samples.

Results

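Gene expression was compared between HEK293T cells treated for 4 h with IXA1 and cells treated for 4 h with IXA4, both of which the series describes as activating IRE1/XBP1s. The comparison took the 2 libraries of IXA1 and the 3 libraries of IXA4 in the deposited count table, 5 of the 14 libraries that match a sample title, and all 13243 genes of that table. HEK293T is a human cell line derived from embryonic kidney that carries the SV40 large T antigen. The other groups were vehicle (DMSO), IXA6 and thapsigargin (Tg), which blocks the pump that loads calcium into the endoplasmic reticulum (ER), each with 3 libraries and the same 4 h exposure. Per the labels, 3 independent experiments were made, and nothing else ties libraries together. A further count column coded IXA3 with replicate number 3 matches no sample title and was used in no step, so IXA1 rests on 2 libraries. No dose is stated for any compound in the labels, so the compounds were compared at a matched time and at unknown doses.

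IRE1 is an ER membrane sensor that, when activated, splices the mRNA of XBP1, and the spliced form encodes XBP1s, a transcription factor for genes of protein folding, translocation, degradation and transport in the ER. A separate pathway, the integrated stress response (ISR), starts from kinases that phosphorylate the translation factor eIF2, among them the ER sensor PERK, and leads to more ATF4 protein, which induces genes of amino acid uptake, amino acid synthesis and tRNA charging. TXNIP is a target of MondoA, a transcription factor that senses glucose phosphates. Counts per gene cannot tell the spliced XBP1 mRNA from the unspliced.

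In outline, genes of the ISR and of amino acid supply were called higher with IXA1 at a share above that of all genes. Most of these calls were of amino acid transporters (5 of 15) and ISR effectors (6 of 26). Of 20 tRNA synthetases 1 was called, and of 13 serine, asparagine, proline and folate enzymes none. The called genes had a median transcript GC content of 58.1%, beside 49.8% of all genes. Of 72 listed ER genes, 4.17% were called higher with IXA1 and none lower, beside 1.9% of all genes called higher. Their median log2 difference was 0.0031, and 38 of the 72 lay above 0. ERO1B, an ER oxidoreductase gene outside these lists and named after its values were seen, was called lower. Promoters are shown for 4 genes that differed between the compounds and hold a known response element. They are CHAC1 and SLC7A1 with the ATF4 element CARE (letters TGATGNAA), TXNIP with the MondoA element ChoRE (CACGNG, 5 bases of any kind, then CNCGNG) and XBP1 with the ER stress element ERSE (CCAAT, 9 bases of any kind, then CCACG). Each sequence runs 5′ to 3′ on the gene's strand, from 250 bases before to 50 bases after the RefSeq start in GRCh38.p14, with the element in capitals. The windows are chr15:40953221-40953520 (plus strand) for CHAC1, chr13:29595639-29595938 (minus strand) for SLC7A1, chr1:145996530-145996829 (minus strand) for TXNIP and chr22:28800520-28800819 (minus strand) for XBP1.
CHAC1: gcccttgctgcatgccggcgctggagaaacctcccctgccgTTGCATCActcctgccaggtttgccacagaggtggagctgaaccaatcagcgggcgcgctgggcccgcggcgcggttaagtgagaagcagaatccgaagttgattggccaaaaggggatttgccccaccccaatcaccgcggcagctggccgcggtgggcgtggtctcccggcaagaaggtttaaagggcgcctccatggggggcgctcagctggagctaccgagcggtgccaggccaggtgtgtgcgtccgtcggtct
SLC7A1: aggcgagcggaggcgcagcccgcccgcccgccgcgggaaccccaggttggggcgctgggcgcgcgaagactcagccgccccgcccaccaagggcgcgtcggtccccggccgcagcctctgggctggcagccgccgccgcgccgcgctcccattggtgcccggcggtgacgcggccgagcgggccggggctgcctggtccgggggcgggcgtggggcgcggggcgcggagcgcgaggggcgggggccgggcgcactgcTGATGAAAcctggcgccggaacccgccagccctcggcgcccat
TXNIP: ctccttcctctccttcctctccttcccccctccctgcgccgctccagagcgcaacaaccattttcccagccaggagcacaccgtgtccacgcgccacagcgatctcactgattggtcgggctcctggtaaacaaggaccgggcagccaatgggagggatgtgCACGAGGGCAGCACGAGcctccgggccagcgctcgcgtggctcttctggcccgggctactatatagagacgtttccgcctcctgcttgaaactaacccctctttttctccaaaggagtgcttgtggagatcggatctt
XBP1: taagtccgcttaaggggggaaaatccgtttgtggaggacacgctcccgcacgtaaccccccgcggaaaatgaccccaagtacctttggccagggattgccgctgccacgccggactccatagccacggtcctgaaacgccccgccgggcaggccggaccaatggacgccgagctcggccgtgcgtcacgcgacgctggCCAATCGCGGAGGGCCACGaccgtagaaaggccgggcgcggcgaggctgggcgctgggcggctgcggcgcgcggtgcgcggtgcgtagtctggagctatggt
The CARE of CHAC1 reads on the opposite strand at bases 42 to 49 of the window, and that of SLC7A1 on the gene's strand at bases 258 to 265. The ChoRE of TXNIP spans bases 163 to 179 and the ERSE of XBP1 bases 199 to 217, both on the gene's strand. In a search of both strands, CARE was in 3.62%, ChoRE in 0.501% and ERSE in 0.0769% of all 35116 promoters of the RefSeq table. Also searched were ERSE-II (ATTGG, 1 base of any kind, then CCACG, in 0.0541%) and UPRE (TGACGTGG, in 0.729%), whose opposite strand begins with the letters that end ERSE. The matches in the 4 printed windows do not overlap. A match is a description of letters and not of binding.

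Across all genes, 342 of 13243 differed between the compounds in edgeR's quasi-likelihood test with Benjamini-Hochberg adjustment at 0.05, which is 2.58%. Of these, 252 were higher with IXA1 (1.9%) and 90 were lower (0.68%). Most differences were small: the median fold between the groups was 1.248, and 8 higher and 14 lower genes differed at least 1.5-fold. A difference of at least 2-fold was found for CHAC1 and BGLAP among the higher genes. BGLAP, which encodes osteocalcin, was at only 1.90 CPM with IXA1 and 0.292 CPM with IXA4 (CPM, the count scaled by library size). Among the 5 lower genes of that size were TMOD1, TFPI2 (1.07 against 2.34 CPM) and KCNAB3 (0.567 against 1.63 CPM), and the other two have only provisional locus names. BGLAP, TFPI2 and KCNAB3 were named after their values were seen. In all 342 genes the IXA1 and IXA4 libraries did not overlap, a property that 38.3% of all genes share. The DMSO mean lay between the means of the compounds for 202 of the 252 higher genes and 78 of the 90 lower ones. On the log2 scale the IXA1 mean was the farther from DMSO for 216 of the higher and 74 of the lower genes. These places are a description, since the genes were chosen for the difference between the compounds.

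**Figure D1:**
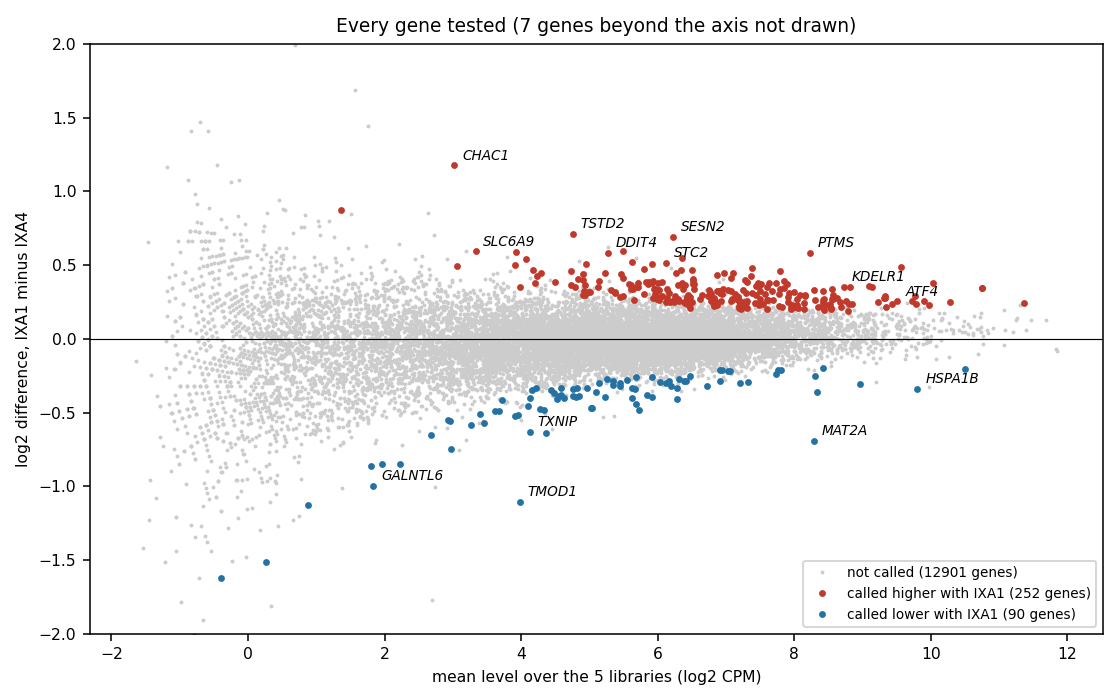
Log2 difference (IXA1 minus IXA4) of every gene tested against its mean level over the 5 libraries in log2 CPM, with the 252 genes called higher with IXA1 in red, the 90 called lower in blue and the rest in grey. CHAC1 stands above and MAT2A and TMOD1 below the bulk of called genes, and 7 genes beyond 2 on the log2 axis are not drawn.

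The number of calls rests on each IXA1 library. It was 11 without IXA1 replicate 1 and 23 without IXA1 replicate 2, where the lone library is taken to vary like the other groups. It was 166, 108 and 73 without IXA4 replicate 1, 2 and 3. The genes called with all libraries kept their direction in every one of these fits. That is no sign of stability, since their IXA1 and IXA4 libraries do not overlap. CHAC1, SESN2, STC2, PTMS, DAZAP2, WAC and MAT2A passed in all 5 of them, while 154 of the 342 genes passed in none. Calls also followed GC content, and of the IXA1, IXA4 and DMSO libraries IXA1 replicate 1 had the widest gap between genes of low and high GC content (some IXA6 and Tg libraries had wider ones). Genes called higher had a median transcript GC content of 55.8%, those called lower 44.1% and all genes 49.8%. Their median levels were 121, 34.7 and 32.6 CPM, in the same order. In the quintile of genes with the lowest GC content, 0.638% were called higher and 1.53% lower, against 3.49% and 0.426% in the quintile with the highest. In IXA1 replicate 1 the lowest quintile was at a median of -0.0901 and the highest at 0.0869 on the log2 scale, relative to the mean over the 5 groups, whereas IXA1 replicate 2 was at -0.0334 and 0.0217. With an offset for GC content and length, chosen after seeing the data, 840 genes passed, 578 higher and 262 lower, and they included 340 of the 342.

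**Figure D2:**
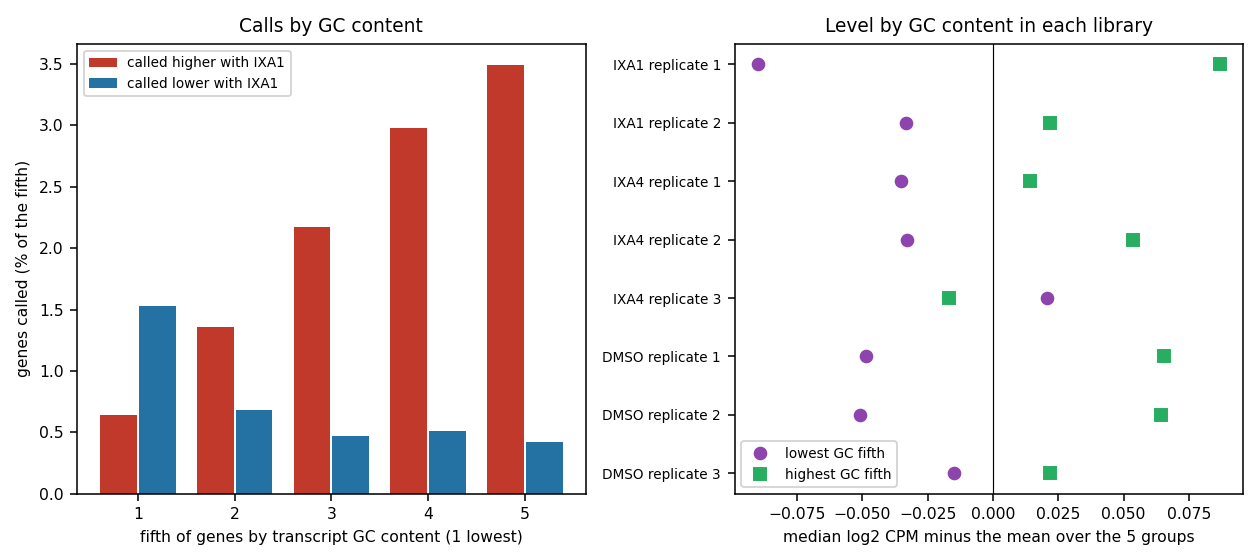
Left, share of genes called higher or lower with IXA1 in each quintile of genes by transcript GC content, as percent of the quintile. Right, median level of the lowest and highest GC quintile in each IXA1, IXA4 and DMSO library (log2 CPM minus the mean over the 5 groups). Calls higher with IXA1 grow from 0.638% to 3.49% along the quintiles, and IXA1 replicate 1 has the widest gap of the libraries drawn.

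Total counts of the 5 libraries ran from 15005091 to 15726742, and over all 14 from 14160321 to 15726742, with a biological coefficient of variation of 5.66% between replicates. All 10 HEK293T markers were measured, with a summed level of 966 to 1020 CPM in IXA1 and 972 to 1010 CPM in IXA4 libraries, although PAX2, a kidney developmental factor, was at 0.871 to 1.68 CPM. Of 22 markers of other cell types 5 were among the genes tested, summing to 20.2 CPM in both IXA1 libraries and 16.5 to 19.4 CPM in IXA4 libraries. None of these markers was called. In such bulk samples, fewer cells of a type and less RNA per cell cannot be told apart. Replicates of each group differed by more than counting noise, so no library counted double.

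Amino acid transporters and ISR effectors held the largest shares of called genes among the 28 lists examined. In the 5 lists of ISR transcription factors, ISR effectors, amino acid transporters, cytosolic tRNA synthetases and serine, asparagine, proline and folate enzymes, which hold 85 measured genes together, 13 were higher with IXA1 (15.3%) and none was lower. Their median log2 difference was 0.11, beside -0.0064 over all genes. Of the 85, 67 lay above 0, beside 6397 of all 13243 genes and 23 of 26 ribosomal protein genes. The 13 called genes had a median GC content of 58.1% and a median level of 75.1 CPM. Of all genes 1.9% were called higher, a share not matched to these lists for GC content or level. Set against DMSO in the same fit, 18 of the 85 genes rose with IXA1 (21.2%) and 3 with IXA4 (3.53%). Of all genes, 2.31% were called with IXA1 against DMSO (1.82% higher, 0.491% lower) and 0.8% with IXA4 (0.717% higher, 0.0831% lower). The DMSO libraries are shared by these contrasts, so their counts are given side by side only.

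CHAC1 encodes an enzyme that degrades glutathione and is a known ATF4 and CHOP target. Its level was 12.6 and 11.9 CPM in the IXA1 libraries, 5.999, 4.92 and 5.30 CPM in the IXA4 libraries and 2.37, 3.24 and 3.29 CPM with DMSO. Both IXA1 libraries lay far above all IXA4 libraries, and all IXA4 libraries lay above all DMSO libraries. The level with IXA1 was 2.26-fold that with IXA4 (log2 difference 1.18 ± 0.13 SE, edgeR adjusted p = 1.57e-05). CHAC1 rose with each compound against DMSO, by a log2 difference of 2.04 ± 0.14 SE with IXA1 and 0.87 ± 0.15 with IXA4. Its mean was 2.95 CPM with IXA6 and 69.1 CPM with Tg.

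SESN2 encodes sestrin 2, a leucine-binding inhibitor of mTORC1. It was at 105 and 89.5 CPM with IXA1, 59.4, 60.6 and 60.9 CPM with IXA4 and 56.4, 53.5 and 50.7 CPM with DMSO. The IXA1 libraries stood apart from all others, while the lowest IXA4 library lay just above the highest DMSO library. The difference between the compounds was 1.61-fold (0.69 ± 0.09 SE on the log2 scale, edgeR adjusted p = 0.000121). DDIT4, another stress-induced inhibitor of mTORC1 (REDD1), was at 51.3 and 45.5 CPM with IXA1, 31.1, 34.4 and 31.8 CPM with IXA4 and 28.03, 28.9 and 24.0 CPM with DMSO. It was higher with IXA1 by 0.58 ± 0.09 (adjusted p = 0.0016), a call that was lost without IXA1 replicate 1 (adjusted p = 0.093). In the list of sestrins and mTORC1 inhibitors, SESN2 and DDIT4 were the 2 of 15 genes called (13.3%, beside 1.9% of all genes called higher). The list's median was 0.015.

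STC2, which encodes the secreted glycoprotein stanniocalcin 2, was at 87.2 and 82.2 CPM with IXA1, 62.4, 53.7 and 61.9 CPM with IXA4 and 51.1, 48.5 and 50.3 CPM with DMSO. All IXA1 libraries exceeded all IXA4 libraries, by a log2 difference of 0.51 ± 0.07 SE (edgeR adjusted p = 0.000491). Of 26 measured ISR effectors 6 were higher with IXA1 and none lower. The remaining called members were CTH, the enzyme that makes cysteine from cystathionine (0.36 ± 0.08, adjusted p = 0.0186), and UNC5B, a netrin receptor (0.27 ± 0.07, adjusted p = 0.0409). Both were lost without either IXA1 library and without IXA4 replicate 2 or 3, and UNC5B also without IXA4 replicate 1 (adjusted p of up to 0.208 and 0.308). CTH was at 29.3 and 31.7 CPM with IXA1 and 24.2, 22.9 and 24.1 CPM with IXA4. When each library of the comparison was left out in turn, 3 to 5 effectors still passed.

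Of the 12 ISR transcription factors and regulators, ATF4 alone was called. Its mRNA was at 848 and 771 CPM with IXA1, 699.65, 651 and 685 CPM with IXA4 and 643, 615 and 588 CPM with DMSO. All IXA1 libraries lay above all IXA4 libraries, at a log2 difference of 0.25 ± 0.06 SE (edgeR adjusted p = 0.0228). Without IXA1 replicate 1 or 2, or IXA4 replicate 2 or 3, the ATF4 call was lost, with an adjusted p of up to 0.313. DDIT3, which encodes CHOP, was at 8.11 and 6.17 CPM with IXA1 and 6.19, 7.11 and 6.94 CPM with IXA4, overlapping groups with a difference of 0.08 (95% interval -0.19 to 0.35). ATF3, a transcription factor induced by many stresses, differed by 0.19 (0.04 to 0.35, adjusted p = 0.183) and the pseudokinase gene TRIB3 by -0.12 (-0.38 to 0.15), neither called. DDIT3 reached 113 CPM and TRIB3 65.8 CPM with Tg, against at most 11.9 CPM in these 5 libraries. PPP1R15A, the stress-induced subunit that directs phosphatase to eIF2, had the smallest p of the 8 eIF2 kinase and phosphatase genes and was not called (0.23, 0.08 to 0.39, adjusted p = 0.0978).

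Amino acid transporters gave 5 of 15 genes higher with IXA1 (33.3%) and none lower, with a list median of 0.19. SLC6A9, the glycine transporter GLYT1, was at 13.7 and 11.5 CPM with IXA1, 8.62, 8.67 and 7.83 CPM with IXA4 and 8.25, 7.51 and 6.92 CPM with DMSO. Its IXA4 and DMSO ranges overlap and its IXA1 libraries lie above both, with a log2 difference between the compounds of 0.59 ± 0.11 SE (edgeR adjusted p = 0.00787). SLC7A11, the cystine transporter of system xc-, was at 75.5 and 79.8 CPM with IXA1, 65.4, 51.0 and 61.5 CPM with IXA4 and 43.8, 44.5 and 46.9 CPM with DMSO, so that the 3 groups were in separate ranges. It was higher with IXA1 by 0.39 ± 0.08 (adjusted p = 0.00928). SLC7A1, a cationic amino acid transporter, was at 349 and 365 CPM with IXA1 and 295, 284 and 275 CPM with IXA4 (0.33 ± 0.07, adjusted p = 0.00947). SLC1A5, a glutamine transporter, was at 397 and 372 CPM with IXA1 and 316, 322 and 319.8 CPM with IXA4, all below the 332 to 346 CPM of DMSO (0.27 ± 0.06, adjusted p = 0.0145). SLC7A5, the leucine transporter LAT1, was at 299.5 and 289 CPM with IXA1 and 258, 243 and 232 CPM with IXA4 (0.27 ± 0.07, adjusted p = 0.0365). SLC1A4, a neutral amino acid transporter, was at 24.8 and 21.6 CPM with IXA1, 20.7, 18.45 and 19.4 CPM with IXA4 and 11.2 ± 0.79 CPM (SD, n = 3) with DMSO. The difference of SLC1A4 between the compounds did not pass (0.25, 95% interval 0.06 to 0.43), although both groups lay above DMSO. Leaving out each library in turn left 0 to 4 transporters called, and none without IXA1 replicate 1. The highest adjusted p in these fits was 0.166 for SLC6A9, 0.141 for SLC7A11 and SLC7A1, 0.214 for SLC1A5 and 0.268 for SLC7A5. Without IXA1 replicate 2 all but SLC6A9 were lost.

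Among 20 cytosolic tRNA synthetases, which load amino acids onto tRNA, GARS for glycine was called, at 354 and 362 CPM with IXA1 and 318, 300.0 and 305 CPM with IXA4 (0.22 ± 0.05 SE, edgeR adjusted p = 0.0228). The GARS call was lost without IXA1 replicate 1 or 2, or IXA4 replicate 2 or 3 (adjusted p of up to 0.191). The list's median log2 difference was 0.086 and 18 of the 20 lay above 0, between -0.062 and 0.22. No serine, asparagine, proline or folate enzyme was called, and PHGDH, the first enzyme of serine synthesis, had the smallest p (0.15, 95% interval 0.05 to 0.26, adjusted p = 0.0961). ASNS, asparagine synthetase, differed by 0.15 (0.02 to 0.27, adjusted p = 0.199). CARE was found in 6 of the 13 promoters matched for tRNA synthetases (46.2%) and 3 of 13 for the transporters (23.1%). It was in 4 of 211 promoters of genes called higher with IXA1 (1.9%), 0 of 76 of those called lower and 171 of 10716 of all genes tested (1.6%).

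**Figure D3:**
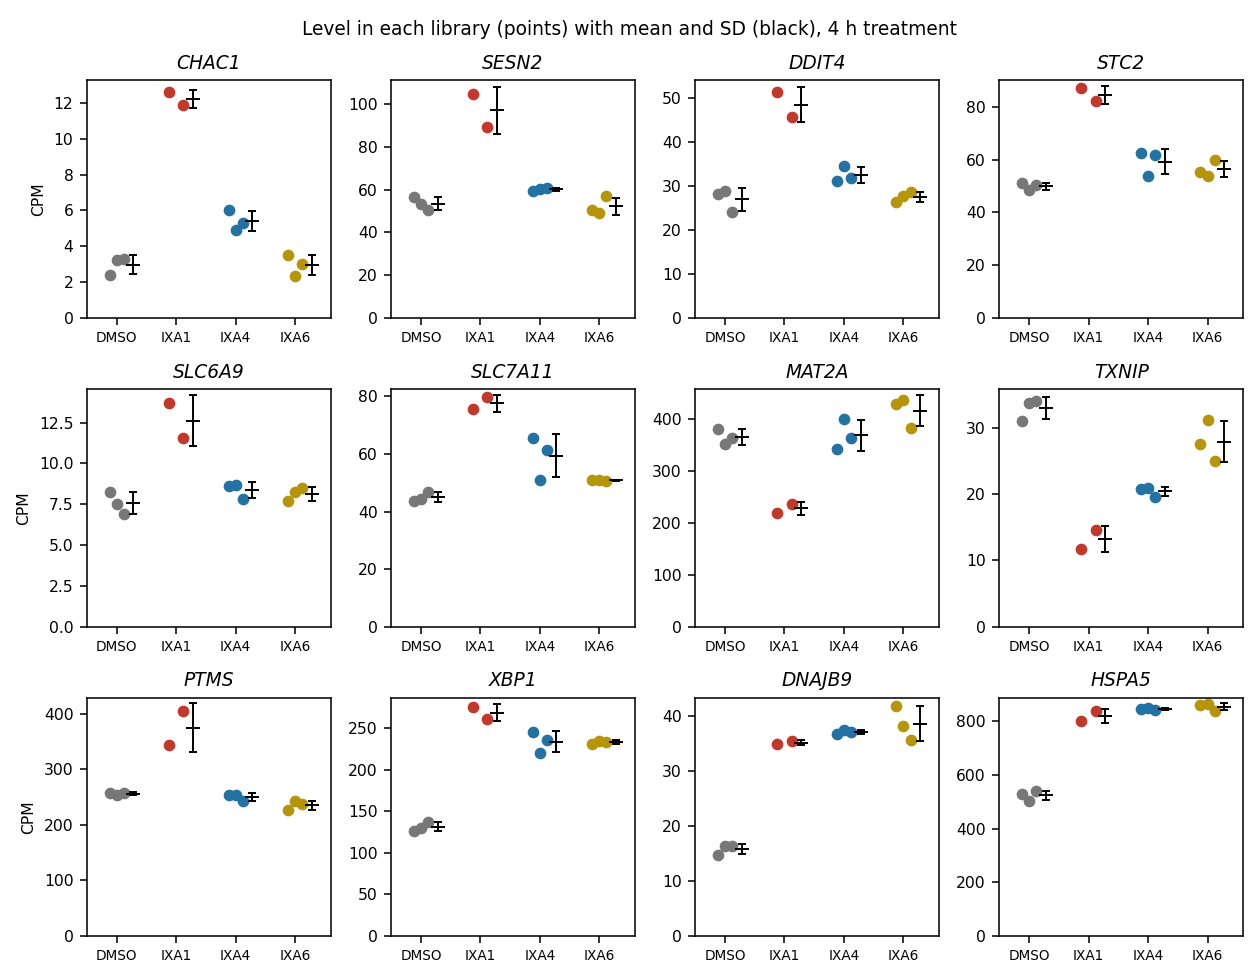
Level in CPM of 12 genes in each DMSO, IXA1, IXA4 and IXA6 library (points), with the mean and SD in black, every axis from 0. For CHAC1, SESN2, DDIT4, STC2, SLC6A9 and PTMS both IXA1 libraries lie above all others and for MAT2A and TXNIP below, whereas for DNAJB9 and HSPA5 the IXA1 and IXA4 libraries all lie above DMSO and near each other.

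**Figure D4:**
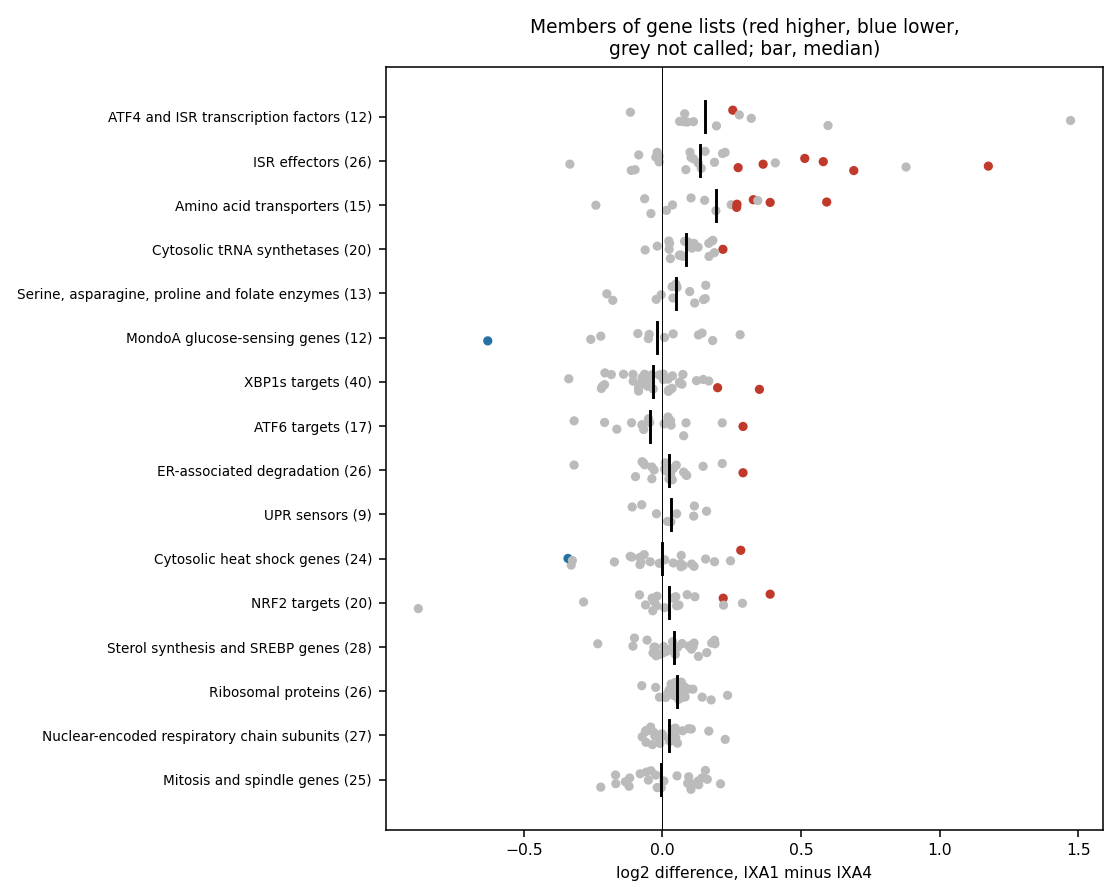
Log2 difference (IXA1 minus IXA4) of each measured member of 16 gene lists, 1 point a gene, with called genes in red (higher) or blue (lower), the median as a bar and the number of members in parentheses. Red points gather in the ISR effectors (6) and amino acid transporters (5), while the XBP1s targets centre on a median of -0.036.

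Against DMSO, 31 ER genes rose with IXA1 and 35 with IXA4, of the 72 in the lists of XBP1s targets, ATF6 targets and ER-associated degradation. Those are 43.1% and 48.6%, beside 1.82% and 0.717% of all genes called higher in the same contrasts. Of the 72, 3 were called between the compounds, all higher with IXA1 (4.17%, beside 1.9% of all genes). Of 40 XBP1s targets, 19 rose with IXA1 against DMSO and 23 with IXA4, and of 17 ATF6 targets 13 rose with each. Between the compounds 2 XBP1s targets and 1 ATF6 target were higher with IXA1 and none was lower, with list medians of -0.036 and -0.046. The 95% interval of the difference lay within 0.322 of 0 (log2) for 33 of the 40 XBP1s and 12 of the 17 ATF6 targets. The same held for 54.4% of all genes, a share not matched for level, and intervals narrow as counts rise. Genes of several ER functions are shared between these lists and that of ER-associated degradation, where SYVN1 was the 1 of 26 called.

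DNAJB9, an ER co-chaperone of BiP and a sensitive XBP1s target, was at 34.8 and 35.5 CPM with IXA1, 36.7, 37.4 and 37.2 CPM with IXA4 and 14.7, 16.2 and 16.3 CPM with DMSO. The compounds differed by -0.08 (95% interval -0.24 to 0.08), while each stood above DMSO (log2 differences of 1.16 ± 0.08 and 1.24 ± 0.08 SE). HSPA5, which encodes the ER chaperone BiP, was at 801 and 839 CPM with IXA1, 848, 849 and 843 CPM with IXA4 and 529, 504 and 539 CPM with DMSO (-0.05, -0.15 to 0.06). SEC24D, a cargo adaptor of the COPII coat, was at 68.1 and 72.3 CPM with IXA1 and 70.6, 66.6 and 72.9 CPM with IXA4, against 41.9, 42.7 and 40.1 CPM with DMSO. These groups overlap, and the interval of SEC24D ran from -0.13 to 0.13. The interval was -0.17 to 0.18 for SDF2L1, an ER co-chaperone, and -0.23 to 0.0046 for the disulfide isomerase gene PDIA4. HERPUD1, a scaffold of ER-associated degradation, was at 87.9 and 91.5 CPM with IXA1 and 80.8, 74.7 and 76.2 CPM with IXA4 (0.22, 0.09 to 0.34, adjusted p = 0.053). In the other direction, the ATF6 targets DNAJC3 (-0.21, -0.33 to -0.09, edgeR adjusted p = 0.0568) and DERL3 (-0.32, -0.55 to -0.08, adjusted p = 0.135) were not called either. ERN1, the gene of IRE1 itself, was at 16.1 and 14.9 CPM with IXA1, 14.1, 15.02 and 12.6 CPM with IXA4 and 15.9, 12.8 and 13.7 CPM with DMSO. Its groups overlap (0.16, -0.06 to 0.38). A difference that missed the threshold does not show that the compounds act alike on these genes.

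XBP1 mRNA was among the 3 ER genes that were higher with IXA1. It was at 275 and 261 CPM with IXA1, 246, 220 and 235 CPM with IXA4 and 126, 129.8 and 137 CPM with DMSO. The step from DMSO to either compound was larger than the gap between them, which was 0.20 ± 0.05 SE on the log2 scale (edgeR adjusted p = 0.0415). KDELR1, a receptor that returns ER proteins from the Golgi, was at 479.8 and 491 CPM with IXA1, 391.9, 395 and 355 CPM with IXA4 and 366, 348 and 375 CPM with DMSO. It rose with IXA1 against DMSO (0.42 ± 0.07) and its difference between the compounds was 0.35 ± 0.07 (adjusted p = 0.00928). SYVN1, the ubiquitin ligase HRD1, was at 75.4 and 75.6 CPM with IXA1, 65.5, 63.96 and 55.6 CPM with IXA4 and 52.98, 50.7 and 49.9 CPM with DMSO (0.29 ± 0.08, adjusted p = 0.0489). All 3 calls were lost without either IXA1 library or IXA4 replicate 3, and those of XBP1 and SYVN1 also without IXA4 replicate 2, with an adjusted p of up to 0.336 for XBP1, 0.126 for KDELR1 and 0.241 for SYVN1. The SYVN1 call was lost without IXA4 replicate 1 too, and with limma-voom and upper-quartile factors. KDELR1 overlaps GRIN2D and SYVN1 overlaps MRPL49 in the RefSeq gene table, neither of which was called. Of 9 UPR sensor genes none was called, and MBTPS1, the protease that cleaves ATF6, had the smallest p (-0.11, 95% interval -0.23 to 0.0077).

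**Figure D5:**
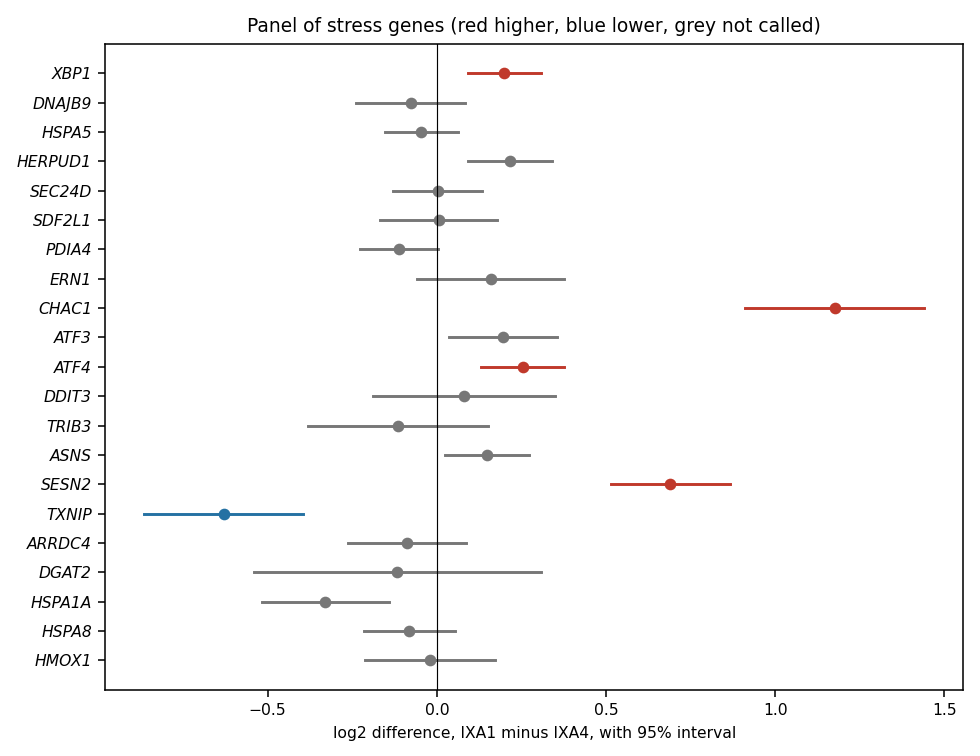
Log2 difference (IXA1 minus IXA4) with its 95% interval for 21 stress genes, red where called higher with IXA1, blue where called lower and grey where not called. The intervals of the ER genes DNAJB9, HSPA5, SEC24D and SDF2L1 span 0, and those of CHAC1 and SESN2 lie above 0.5.

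The gene lower with IXA1 at the smallest adjusted p was MAT2A, which encodes the enzyme that makes S-adenosylmethionine from methionine. It was at 218 and 237 CPM with IXA1, 342, 400.0 and 362 CPM with IXA4 and 381, 352 and 363 CPM with DMSO. The IXA4 and DMSO ranges overlap and both IXA1 libraries lie below them. The difference between the compounds was -0.69 ± 0.07 SE on the log2 scale (edgeR adjusted p = 1.5e-05), and the means were 416 CPM with IXA6 and 206 CPM with Tg. MAT2A overlaps GGCX in the RefSeq gene table, which was not called. In the authors' deposited table for IXA1, whose header names no reference group, MAT2A has a log2 fold change of -0.66, and in the authors' deposited table for IXA4 it has 0.012. The fit here gave MAT2A -0.68 for IXA1 over DMSO. XBP1 was close too, at 1.06 in the authors' IXA1 values against 1.03 here, as was CHAC1 at 2.02 against 2.04. Not every named gene was as close for IXA1. PTMS has 0.43 in the authors' values against 0.55 here, FAM222A 0.11 against 0.28, NOVA2 0.046 against 0.30 and TMOD1 -0.76 against -1.04. For IXA4, NOVA2 has -0.58 in both. The cause of these gaps was not tested.

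TXNIP encodes a thioredoxin-binding arrestin that limits glucose uptake. It was at 11.8 and 14.6 CPM with IXA1, 20.7, 20.9 and 19.6 CPM with IXA4 and 31.1, 33.8 and 34.1 CPM with DMSO. The 3 groups do not overlap and follow the order DMSO, IXA4, IXA1 from high to low. TXNIP was lower with IXA1 than with IXA4 by 0.63 on the log2 scale (-0.63 ± 0.11 SE, edgeR adjusted p = 0.00593), a call lost without IXA1 replicate 1 (adjusted p = 0.137). It was the 1 called gene of 12 in the MondoA list (8.33%, beside 0.68% of all genes called lower). ARRDC4, its paralog and a MondoA target too, fell against DMSO with each compound and differed by -0.09 between them (95% interval -0.26 to 0.09). DGAT2, which makes triacylglycerol, was at 4.15 and 3.51 CPM with IXA1, 4.12, 3.80 and 4.55 CPM with IXA4 and 8.83, 10.2 and 9.88 CPM with DMSO. Its compound groups overlap (-0.12, -0.54 to 0.31), and both lie below DMSO.

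Cytosolic heat shock genes gave 1 higher and 1 lower member of 24 (4.17% each, beside 1.9% and 0.68% of all genes). HSPA1B, an inducible HSP70 gene, was at 705 and 838 CPM with IXA1, 934, 1084 and 913 CPM with IXA4 and 730.2, 689 and 651 CPM with DMSO. It was lower with IXA1 (-0.34 ± 0.09 SE, edgeR adjusted p = 0.0335), while its near-identical paralog HSPA1A had a difference of -0.33 (95% interval -0.52 to -0.14, adjusted p = 0.0516). Reads of these paralogs can be shared, so neither value stands alone. Their summed level was 1537 and 1747 CPM with IXA1, 1959, 2331 and 1923 CPM with IXA4 and 1586, 1500.0 and 1415 CPM with DMSO. In that sum the IXA4 libraries lie above all IXA1 libraries, which overlap the DMSO range. HSPB1, a small heat shock protein, was at 48.9 and 49.0 CPM with IXA1 and 40.5, 40.5 and 39.8 CPM with IXA4 (0.28 ± 0.07, adjusted p = 0.0409). The calls of HSPA1B and HSPB1 were lost without each library of the comparison in turn, at an adjusted p of up to 0.395 and 0.214. HSPA8, the constitutive HSP70 gene, differed by -0.08 (-0.22 to 0.05).

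Outside the stress lists, the higher gene with the smallest adjusted p was PTMS, which encodes parathymosin, a small acidic nuclear protein. PTMS was at 344 and 406 CPM with IXA1, 254, 254 and 242 CPM with IXA4 and 258, 253 and 257 CPM with DMSO. The IXA4 and DMSO libraries overlap and the IXA1 libraries lie above them by 0.58 ± 0.06 SE on the log2 scale (edgeR adjusted p = 6.81e-06). DAZAP2 (277 and 274.5 against 205, 225 and 209 CPM) and WAC (244.5 and 249 against 182.5, 187 and 199.9 CPM) were called at 0.37 ± 0.05 and 0.38 ± 0.06, and are named, after their values were seen, because no left-out library ended their calls. S100A11, a calcium-binding protein, was at 75.4 and 71.1 CPM with IXA1 and 48.4, 53.3 and 52.5 CPM with IXA4 (0.51 ± 0.08). MAPK7, the kinase ERK5, was at 39.2 and 35.9 CPM with IXA1 and 26.5, 25.7 and 27.1 CPM with IXA4 (0.51 ± 0.09). The call of each was lost without IXA1 replicate 1 (adjusted p = 0.0752 and 0.109).

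The other large differences in the higher direction were those of NOVA2, a neuronal splicing regulator (0.88), FAM65A (0.59), TCF7L1, a repressor of Wnt target genes (0.59), MTRNR2L2 (0.55), FAM222A (0.54) and RNF169, an ubiquitin ligase at DNA breaks (0.52). The calls of NOVA2, MTRNR2L2 and FAM222A were lost without each library in turn (adjusted p of up to 0.205, 0.302 and 0.308). Those of FAM65A and TCF7L1 were lost without either IXA1 library (up to 0.131 and 0.114), that of TCF7L1 also without IXA4 replicate 3, and that of RNF169 without IXA1 replicate 2 or IXA4 replicate 2 (up to 0.337). MTRNR2L2 resembles mitochondrial rRNA, and its reads can belong elsewhere. TSTD2 was higher by 0.71 ± 0.15 SE and TMOD1, the actin-capping tropomodulin 1, lower by 1.10 on the log2 scale (-1.10 ± 0.28 SE, edgeR adjusted p = 0.0357). These 2 genes overlap, and their summed level was 44.6 CPM in both IXA1 libraries, 41.8, 43.0 and 40.0 CPM with IXA4 and 40.1, 45.1 and 44.0 CPM with DMSO. Both IXA1 sums lie above all IXA4 sums and within the DMSO range. Without a stated use of strand, reads of TSTD2 and TMOD1 cannot be told apart, and their opposite calls are uncertain. TMOD1 ranged from 13.98 to 27.02 CPM within DMSO. Without each library in turn TMOD1 was lost (adjusted p of up to 0.324), and TSTD2 without either IXA1 library or IXA4 replicate 3 (up to 0.156).

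Lower genes with large differences were mostly at low levels. GALNTL6, a glycosyltransferase-like gene, was at 2.21 and 2.25 CPM with IXA1 and 4.56, 4.49 and 4.36 CPM with IXA4 (-0.999 ± 0.20 SE, edgeR adjusted p = 0.00902). ORAI2, a store-operated calcium channel subunit, was at 15.1 and 15.7 CPM with IXA1, 23.4, 26.2 and 22.3 CPM with IXA4 and 19.1, 19.4 and 23.6 CPM with DMSO (-0.64 ± 0.12, adjusted p = 0.00612). Its promoter holds a UPRE at bases 104 to 111 and a ChoRE at bases 124 to 140 of the window. The GALNTL6 and ORAI2 calls were lost without either IXA1 library (adjusted p of up to 0.116 and 0.107). The remaining lower genes named by size were PALM2 (-0.85), WDR90 (-0.75), SOWAHA (-0.65), SOX21, a transcription factor (-0.58), HEMK1 (-0.57), ESPNL (-0.56), NUDT7 (-0.55), MAN2C1, a cytosolic mannosidase (-0.53), CAPRIN2 (-0.51) and PHYKPL (-0.51). The mean of each was under 20 CPM with IXA4, and each call was lost without either IXA1 library. Those of SOWAHA, SOX21, HEMK1, NUDT7, MAN2C1, CAPRIN2 and PHYKPL were also lost without each IXA4 library in turn. PALM2 was lost without IXA4 replicate 3, WDR90 without IXA4 replicate 2 or 3 and ESPNL without IXA4 replicate 1 or 2. SLC6A9, MAPK7, RNF169, ORAI2, HEMK1, MAN2C1, PHYKPL and CCNE2 overlap another measured gene, none of those called, and without a stated use of strand their reads cannot be told apart. Of the cell cycle lists, 1 of 20 S phase genes was called (5.0%, beside 0.68% of all genes called lower). That was CCNE2 (cyclin E2), at 37.9 and 45.0 CPM with IXA1, 55.9, 55.0 and 53.2 CPM with IXA4 and 54.9, 54.4 and 54.4 CPM with DMSO. The difference of CCNE2 was -0.40 ± 0.08 (adjusted p = 0.00965, and 0.223 without IXA1 replicate 1).

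The remaining lists held few or no called members. Of all genes, 1.9% were called higher and 0.68% lower, and 1 or 2 calls in a list are too few to read as a result about it. NRF2 targets had 2 of 20 higher, SLC7A11 and FTH1, the ferritin heavy chain (0.22 ± 0.06 SE, edgeR adjusted p = 0.0481). HMOX1, which encodes haem oxygenase, was at 46.8 and 51.6 CPM with IXA1 and 51.6, 50.6 and 47.5 CPM with IXA4, with an interval of -0.21 to 0.17. Among 16 reported substrates of IRE1-dependent mRNA decay (RIDD), PER1, a circadian repressor, was higher with IXA1 at 59.96 and 61.4 CPM against 48.2, 47.8 and 44.3 CPM (0.38 ± 0.09, adjusted p = 0.0228), and none was lower. The list's median was 0.091 and 14 of the 16 lay above 0, beside 6397 of all 13243 genes. The p53 list had 1 of 19 called, SESN2. Without each library of the comparison in turn FTH1 was lost (adjusted p of up to 0.465), and PER1 without IXA1 replicate 1 or 2, or IXA4 replicate 2 or 3 (adjusted p of up to 0.173).

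No member was called among 25 mitosis genes, 27 respiratory chain subunits, 14 mitochondrial chaperones and proteases, 26 ribosomal proteins, 28 sterol genes, 25 immediate early genes, 9 NF-kB targets, 16 hypoxia genes and 13 triacylglycerol storage genes in edgeR's test. Over the 14 lists with no call, serine enzymes, UPR sensors, eIF2 kinases and markers included, 39 of 228 entries had an unadjusted p under 0.05 (17.1%, beside 17.3% of all genes). DESeq2 called 9 of them (3.95%, beside 4.49%) and limma-voom 1 (0.439%, beside 2.51%). The lists were picked for holding no edgeR call in the same counts, so these shares cannot show whether they behave like all genes. The smallest p of each list belonged to CDK1 (-0.22, adjusted p = 0.0513), NDUFA2 (0.23, 0.171), SPG7 (-0.26, 0.101), RPL11 (0.23, 0.053), FDFT1 (0.16, 0.0927), SRF (0.21, 0.0593), BIRC3 (0.83, 0.235, at 1.59 CPM or less), NDRG1 (0.16, 0.131) and PLIN3 (-0.22, 0.206). Ribosomal protein genes had 23 of 26 above 0 at a median of 0.053, beside 6397 of all 13243 genes above 0. Among the markers of other cell types, COL1A1, a collagen gene, had the smallest p (0.22, adjusted p = 0.419).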

How the data were processed

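RNA was measured in HEK293T cells, and the authors deposited whole-number counts per gene symbol. Further tables by the authors hold log2 fold changes and adjusted p-values for the compounds. DESeq and GRCh37.p13 are named in their processing notes, per the submitters. For the aligner, the counting tool and use of strand the entry is "not given in the sources used here". Of 15 count columns 1 matched no sample title and was not used.

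Counts of 14 libraries in 5 groups were fitted together with edgeR 4.0.16 in R 4.3.3 (TMM, quasi-likelihood test, no covariate), and the default filter removed 0 genes. P-values were adjusted over all 13243 genes, and 22 rows bearing a date in place of a name (0.249% to 0.282% of counts) stayed in the fit unnamed, none called. SE is the log2 difference over the square root of F. Alternatives used DESeq2 1.42.0 and limma 3.58.1. Intervals and tests measure the spread between libraries, and the labels call these independent experiments.

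Named genes are the 15 largest called differences in each direction at a mean of at least 2 CPM, up to 4 called members of each of 28 lists (or the smallest p), and a panel of 21 genes. The comparison, the lists and the panel were chosen with earlier results of these data known. On simulated counts the test recovered 45.6% of genes changed 1.25-fold, 80.3% at 1.5-fold and 95.5% at 2-fold. Of its calls 2.65% were of unchanged genes. Those counts were drawn independently with the spread that edgeR estimated and with no GC trend, so this share does not measure the error in the data. With a GC trend put into 1 IXA1 library, that share was 17.8%, and 5.19% with the GC content and length offset. The size of that trend was not matched to the data. GC content came from GENCODE 29 transcripts, and sequences from RefSeq tables (GRCh38.p14), where 59 of 73 named genes matched. Coordinates belong to that build only. Of 26 same-numbered pairs of libraries, 7 deviated together at a correlation over 0.1, which does not decide whether they are paired.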

Additional observations from a re-analysis of the deposited data

How the results depend on the processing

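Of 342 genes called between IXA1 and IXA4 (252 higher, 90 lower), the number fell to 11 to 166 when each IXA1 or IXA4 library was left out (9 to 132 higher, 2 to 34 lower). It was 384 (273 higher, 111 lower) at a mean of at least 2 CPM, 353 with DESeq2's size factors, 325 with upper-quartile factors, 333 with limma-voom and 342 with no filter. DESeq2 called 594 (450 higher, 144 lower), IXA1 and IXA4 libraries fitted alone 1156 (727 higher, 429 lower), and the fit without Tg 746 (498 higher, 248 lower). With the GC content and length offset 840 were called (578 higher, 262 lower), and with the offset and the replicate block 890 (618 higher, 272 lower). Tested against a minimum fold of 1.2, 4 passed (3 higher, 1 lower), namely CHAC1, SESN2, PTMS and MAT2A. The offset was chosen after seeing the data, and the cause of these moves was not tested.

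Of 26 same-numbered pairs 7 had a correlation over 0.1 (range -0.185 to 0.237). Between IXA1 and IXA4 it was -0.0241 for replicate 1 and 0.171 for replicate 2. With 2 or 3 libraries a group, these values cannot decide whether library numbers pair the samples. With the replicate block 339 genes were called, 285 of them called without it. Of the named genes, SYVN1, UNC5B, MTRNR2L2, WDR90, SOWAHA and SOX21 were not called with the replicate block. WDR90, SOX21, SYVN1 and FTH1 were not called by limma-voom, SYVN1 not with upper-quartile factors and MTRNR2L2 not by DESeq2.

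Log2 differences that turned sign belong to uncalled genes, and the cause was not tested. SEC24D was -0.00974 with the replicate block, -0.00834 with the block and offset, and -0.0402 to 0.0448 when libraries were left out. SDF2L1 was -0.0308 with the offset, -0.0265 with the block too, and -0.023 to 0.0432 when libraries were left out. DDIT3 ran from -0.13 to 0.265 and HMOX1 from -0.0939 to 0.0476 when libraries were left out. With 2 IXA1 libraries, the spread between cultures is known from few samples.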

Other observations

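Some further genes outside the lists, named after their values were seen, differed between the compounds in the edgeR test. ERO1B, which encodes an ER oxidoreductase of disulfide formation, was at 25.4 and 27.9 CPM with IXA1 and 34.9, 39.2 and 36.3 CPM with IXA4. It was lower with IXA1 by 0.47 on the log2 scale (-0.47 ± 0.09 SE, edgeR adjusted p = 0.00994). The splicing factor genes SRSF6 (-0.25, adjusted p = 0.0106) and SRSF7 (-0.31, adjusted p = 0.0122) were lower with IXA1. MTR, the methionine synthase gene, was lower too (-0.21, adjusted p = 0.0439). POLR2A, the largest subunit of RNA polymerase II, was higher (0.49, adjusted p = 0.0124), as was GAPDH, a glycolytic enzyme gene (0.34, adjusted p = 0.00928). No call of these further genes held in all 5 fits with a left-out library.

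Among the genes called between the compounds, the IXA6 mean lay nearer to IXA4 than to IXA1 for 234 of the 252 higher genes (92.9%) and 85 of the 90 lower ones (94.4%). This is a description, because those genes were chosen for their IXA1 against IXA4 difference.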
